A study of Mus musculus with 12 samples.

Results

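Expression of 10 genes of the YAP/TAZ pathway and of its CCN targets was followed in mouse GC-2 cells, labelled as type B spermatogonia. The 10 genes were taken by symbol from the 24770 genes of the expression table: the coactivators Yap1 and Wwtr1, the transcription factors Tead1 and Tead3, the regulators Lats2, Amotl2 and Ajuba, and the target genes Ankrd1, Ccn1 and Ccn2. All 10 passed the filter for testing, a minimum of 1 FPKM (fragments scaled to transcript length and to the library's total) in 3 or more of the 12 libraries, as did 12311 genes in all. The cells were wild type and were kept for 24 h in 4 groups of 3 biological replicates. They were MLN4924 under hypoxia, MLN4924 under normoxia, DMSO under hypoxia and DMSO under normoxia. MLN4924, given at 1 µM, inhibits the NEDD8-activating enzyme, DMSO is its solvent, and hypoxia was 1% O2. All groups used 1 cell line, so the p-values describe the spread between its cultures.

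YAP (Yap1) and TAZ (Wwtr1) are coactivators without a DNA-binding domain of their own, and they act mainly through the TEAD transcription factors. The Hippo kinases phosphorylate Lats1 and Lats2, which in turn phosphorylate YAP and TAZ, and the phosphorylated proteins are held in the cytoplasm or degraded. Part of that degradation runs through a cullin-RING ubiquitin ligase, a class of enzyme that needs NEDD8 on its cullin, which links the pathway to MLN4924 as background. Ccn1, Ccn2 and Ankrd1 are the transcripts most often read as the output of YAP and TAZ, and Amotl2 and Lats2 are targets that also restrain the pathway. The measurements are of RNA, and neither the amount nor the location of the proteins was measured.

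The libraries summed to between 530452 and 557779 FPKM except DMSO hypoxia replicate 1, which summed to 633597 FPKM. That library stood apart by transcript length. Over 11003 tested genes with an annotated length, its deviation from the mean of DMSO hypoxia replicates 2 and 3 fell with length (Spearman rho = -0.579 across genes, which are not independent replicates). The median log2 deviation was 0.37 for transcripts up to 1764 nt and -0.43 for those above 5097 nt. That library enters the DMSO hypoxia group and, through it, the common estimate of spread. Results are therefore given with and without that library where the call of a member changes. Of the other values that change, only some are given both ways, and values given once come from all libraries unless stated. Genes known to respond to the treatments were read as a check. The HIF targets Adm and Car9 averaged 31.6 and 297 FPKM in DMSO hypoxia, against 0.783 and 48.0 FPKM in DMSO normoxia. The NRF2 target Slc7a11 averaged 13.2 FPKM in MLN4924 normoxia, against 2.11 FPKM in DMSO normoxia. With MLN4924, Adm and Car9 averaged 18.8 and 171 FPKM under hypoxia, and 1.76 and 19.7 FPKM under normoxia. The check list held Adm, Car9, Vegfa, Ndrg1, Nqo1 and Slc7a11. Of these 6 genes, MLN4924 raised 2 and lowered 4 under hypoxia (limma, adjusted p under 0.05), where 25.5% of all tested genes passed. Under normoxia it raised 3 and lowered 2, where 20.0% passed. Hypoxia raised 5 and lowered 1 with DMSO, where 33.2% passed. With MLN4924 hypoxia raised 4 and lowered 0, where 28.2% passed.

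Of 12 spermatogonial markers 7 had values, and Kit, Sohlh1, Sohlh2, Nanos3 and Ddx4 stayed under 1 FPKM in every library. The other 2 were Uchl1, with group means of 12.8 to 16.9 FPKM, and Gfra1, with group means of 1.55 to 5.58 FPKM. The 7 summed to 12.04 to 16.7 FPKM in MLN4924 hypoxia, 15.1 to 17.7 in MLN4924 normoxia, 15.6 to 26.1 in DMSO hypoxia and 17.5 to 19.6 in DMSO normoxia. Of the spermatocyte and spermatid markers only Sycp1, Sycp3 and Acrv1 had values. They reached at most 0.02, 0.35 and 0.07 FPKM in any library. The 9 fibroblast and peritubular markers summed to 1294 to 1354 FPKM in MLN4924 hypoxia, 1086 to 1103 in MLN4924 normoxia, 1179 to 1428 in DMSO hypoxia and 1223 to 1248 in DMSO normoxia. Within that list Col1a1 averaged 465 FPKM in MLN4924 hypoxia, 366 in MLN4924 normoxia, 684 in DMSO hypoxia and 617 in DMSO normoxia. Acta2 averaged 406 FPKM in MLN4924 hypoxia, 371 in MLN4924 normoxia, 27.9 in DMSO hypoxia and 52.5 in DMSO normoxia, while Thy1, Myh11 and Dcn were near 0. The 7 Sertoli cell markers with values summed to 11.1 to 15.4 FPKM in MLN4924 hypoxia, 8.56 to 13.0 in MLN4924 normoxia, 21.9 to 25.0 in DMSO hypoxia and 15.2 to 18.1 in DMSO normoxia. The 4 Leydig cell markers with values, led by Star, summed to 3.29 to 6.63 FPKM in MLN4924 hypoxia, 1.61 to 3.83 in MLN4924 normoxia, 2.84 to 6.08 in DMSO hypoxia and 11.3 to 12.1 in DMSO normoxia. The 4 leukocyte markers with values summed to between 9.12 and 14.3 FPKM in all groups. Most of that sum was Cd14, with group means of 8.61 to 9.99 FPKM, and Cd68 had group means of 1.49 to 3.56 FPKM. Csf1r reached at most 0.19 FPKM and Itgam at most 0.01 FPKM in any library. The part of these markers in the results on the pathway was not tested. In bulk RNA, fewer cells that express a gene and less of its RNA per cell cannot be told apart.

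Promoters of 3 members that were higher after MLN4924 are shown as examples of the letters to which TEAD factors bind. All 8 members with a promoter window held these letters, among them Yap1, Wwtr1 and Tead3, which did not pass the test for a rise with MLN4924. RefSeq promoter windows, 250 bases before to 50 bases after the annotated start on build GRCm38.p6, were matched for 8 of the 10 members. Ccn2 and Tead1 had no entry. Each window is printed 5′ to 3′ on the strand of its gene, and capitals mark CATTCC or its reverse complement GGAATG. The Ccn1 window is chr3:145649936-145650235 on the minus strand, the Ankrd1 window is chr19:36119795-36120094 on the minus strand, and the Amotl2 window is chr9:102717554-102717853 on the plus strand.
Ccn1: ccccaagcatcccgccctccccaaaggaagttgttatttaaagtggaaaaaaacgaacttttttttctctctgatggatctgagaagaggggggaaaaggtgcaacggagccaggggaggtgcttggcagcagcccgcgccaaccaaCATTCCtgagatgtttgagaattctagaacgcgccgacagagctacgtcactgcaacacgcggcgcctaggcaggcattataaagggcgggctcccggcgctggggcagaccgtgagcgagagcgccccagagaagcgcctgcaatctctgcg
Ankrd1: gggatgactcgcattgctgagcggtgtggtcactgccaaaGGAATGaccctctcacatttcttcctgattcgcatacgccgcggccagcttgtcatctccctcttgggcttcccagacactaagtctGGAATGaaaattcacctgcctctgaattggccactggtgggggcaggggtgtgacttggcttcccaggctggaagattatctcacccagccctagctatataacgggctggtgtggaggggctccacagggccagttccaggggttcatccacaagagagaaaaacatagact
Amotl2: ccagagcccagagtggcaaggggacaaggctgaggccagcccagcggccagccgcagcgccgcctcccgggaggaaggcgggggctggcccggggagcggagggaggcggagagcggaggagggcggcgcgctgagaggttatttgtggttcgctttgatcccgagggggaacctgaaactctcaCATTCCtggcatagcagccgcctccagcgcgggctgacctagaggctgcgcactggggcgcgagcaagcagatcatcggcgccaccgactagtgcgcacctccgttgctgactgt

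The Ccn1 match begins 103 bases before the start, the Ankrd1 matches begin 210 and 123 bases before it, and the Amotl2 match begins 65 bases before it. CATTCC was searched on both strands, and 8 of 8 members with an entry held it in at least 1 window (10 of 12 windows). For scale, 13.9% of the 9165 tested genes with an entry held it. By window, 11.9% of the 11663 windows of tested genes and 14.7% of all 32851 windows held it. The members were chosen as genes of this pathway, so their share is no test. Windows of 1 gene can overlap. The HIF core ACGTG, also searched on both strands, occurred in 2 of the 8 members, Yap1 and Lats2, against 30.0% of the tested genes. The CArG box bound by SRF occurred in 0 of the 8, against 1.54% of the tested genes. These are matches of letters, and binding was not measured.

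**Figure D1:**
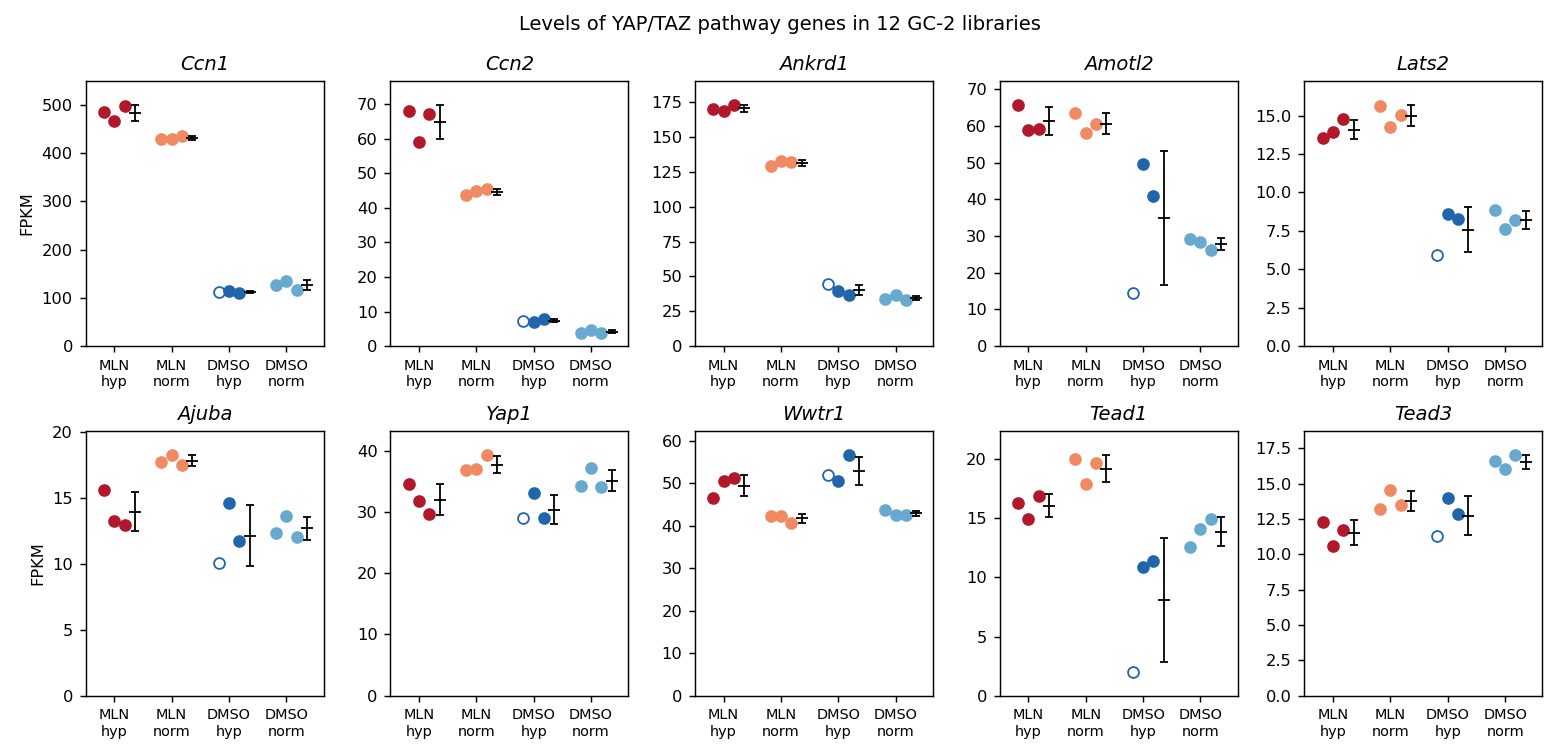
FPKM of the 10 members in each of the 12 libraries, by group, 1 panel per gene, with points for libraries, bars for the group mean ± SD (n = 3) and an open point for DMSO hypoxia replicate 1. Ccn1, Ccn2 and Ankrd1 are higher in every MLN4924 library than in every DMSO library, and DMSO hypoxia replicate 1 is the low point of its group for Tead1 and Amotl2.

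The secreted targets and Ankrd1 were the members that moved most. MLN4924 raised Ccn1, Ccn2 and Ankrd1 under both oxygen conditions, by 3.41-fold to 8.87-fold, and the 6 libraries with MLN4924 lay above the 6 with DMSO for each of the 3 genes. Hypoxia raised Ccn2 and Ankrd1 with and without the inhibitor, by a much smaller amount. Ccn1 did not pass the test for hypoxia in either setting, except under the alternatives given below. Folds and log2 differences were computed from FPKM with 1 added.

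Ccn2 (connective tissue growth factor) encodes a matricellular protein that binds integrins and growth factors. It stood at 68.1, 59.2 and 67.35 FPKM in MLN4924 hypoxia, 43.6, 44.8 and 45.4 in MLN4924 normoxia, 7.12, 6.98 and 7.84 in DMSO hypoxia, and 3.87, 4.69 and 3.91 in DMSO normoxia. The 4 groups did not overlap, in the order MLN4924 hypoxia, MLN4924 normoxia, DMSO hypoxia, DMSO normoxia. With MLN4924 it rose 7.92-fold under hypoxia (log2 2.99 ± 0.08 SE, adjusted p = 9.29e-09 by limma with Benjamini-Hochberg adjustment, as throughout) and 8.87-fold under normoxia (3.15 ± 0.08, adjusted p = 2.1e-08). It was number 9 and number 6 from the top by log2 fold change among the 12311 genes in these comparisons. Under hypoxia it rose 1.44-fold with MLN4924 (0.53 ± 0.08, adjusted p = 0.000945) and 1.61-fold with DMSO (0.69 ± 0.08, adjusted p = 0.000142). The mean under both treatments together was 15.6 times the mean of DMSO normoxia.

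Ccn1 (CYR61), a second matricellular protein of the same family, was the most abundant member, with values per kilobase above the rest in all groups. It stood at 485, 466 and 498 FPKM in MLN4924 hypoxia, 429, 429 and 436 in MLN4924 normoxia, 111, 114.8 and 111 in DMSO hypoxia, and 127, 135 and 115.2 in DMSO normoxia. MLN4924 raised it 4.28-fold under hypoxia (2.10 ± 0.06, adjusted p = 9.29e-09) and 3.41-fold under normoxia (1.77 ± 0.06, adjusted p = 4.22e-08). The groups under hypoxia and normoxia did not overlap in either setting, and the sign was opposite: 0.16 ± 0.06 with MLN4924 (adjusted p = 0.0627) and -0.16 ± 0.06 with DMSO (adjusted p = 0.0544). The difference with MLN4924 passed the threshold without DMSO hypoxia replicate 1 (adjusted p = 0.0301) and without DMSO normoxia replicate 2 or 3 (0.0484 and 0.0349). It also passed with the libraries scaled by the median of ratios (0.22, adjusted p = 0.0204) and with only the libraries compared (0.00723). With each library given its own weight the adjusted p was 0.0213. The difference with DMSO passed it without DMSO normoxia replicate 3 (-0.22, adjusted p = 0.0148) and with each library given its own weight (-0.17, 0.0357).

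Ankrd1 encodes an ankyrin repeat protein of the nucleus and the sarcomere that is best known from heart muscle. Its levels were 170.1, 168 and 173 FPKM in MLN4924 hypoxia, 129, 133 and 132 in MLN4924 normoxia, 44.4, 39.3 and 36.8 in DMSO hypoxia, and 33.9, 36.4 and 33.3 in DMSO normoxia. No neighbouring groups overlapped in this order. MLN4924 raised it 4.18-fold under hypoxia (2.06 ± 0.07, adjusted p = 2.55e-08) and 3.73-fold under normoxia (1.90 ± 0.07, adjusted p = 5.97e-08). Hypoxia raised it by 0.37 ± 0.07 on the log2 scale with MLN4924 (adjusted p = 0.0021) and by 0.21 ± 0.07 with DMSO (adjusted p = 0.0337). The difference with DMSO was 0.14 without DMSO hypoxia replicate 1 (adjusted p = 0.0354), and its call was lost without DMSO normoxia replicate 1 (adjusted p = 0.0959), DMSO normoxia replicate 3 (0.109) or MLN4924 normoxia replicate 3 (0.0505).

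Since both CCN genes are read in the same library, their ratio does not depend on the library's scale. Ccn1 was 7.12 to 7.87 times Ccn2 in MLN4924 hypoxia, 9.58 to 9.83 times in MLN4924 normoxia, 14.1 to 16.4 times in DMSO hypoxia and 28.8 to 32.9 times in DMSO normoxia. The 4 ranges were separate, so the pair changed unequally under each treatment.

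The regulators Lats2, Amotl2 and Ajuba were also higher after MLN4924 under normoxia, by smaller amounts. Under hypoxia Lats2 rose as well, Amotl2 passed the test only when DMSO hypoxia replicate 1 or another of that group's libraries was left out, or with other settings given at the end, and Ajuba did not pass it with all libraries.

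Lats2, the kinase that phosphorylates YAP and TAZ, stood at 13.6, 13.9 and 14.8 FPKM in MLN4924 hypoxia, 15.7, 14.3 and 15.05 in MLN4924 normoxia, 5.90, 8.59 and 8.24 in DMSO hypoxia, and 8.84, 7.65 and 8.20 in DMSO normoxia. Every library with MLN4924 was above every library with DMSO, and the groups overlapped between hypoxia and normoxia. It rose 1.78-fold under hypoxia (0.83 ± 0.12, adjusted p = 0.000626) and 1.73-fold under normoxia (0.79 ± 0.12, adjusted p = 0.000941). Without DMSO hypoxia replicate 1 the log2 change under hypoxia was 0.68 ± 0.07 (adjusted p = 9.85e-05). The changes with hypoxia were -0.08 (95% interval -0.34 to 0.18) with MLN4924 and -0.12 ± 0.12 with DMSO (0.03 without DMSO hypoxia replicate 1), neither past the test.

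Amotl2 encodes an angiomotin, a junctional scaffold that binds YAP and keeps it out of the nucleus. It stood at 65.7, 59.0 and 59.2 FPKM in MLN4924 hypoxia, 63.5, 58.0 and 60.5 in MLN4924 normoxia, 14.5, 49.6 and 40.9 in DMSO hypoxia, and 29.1, 28.4 and 26.1 in DMSO normoxia. The 14.5 FPKM of DMSO hypoxia replicate 1 lay below all other libraries, whereas the other 2 of its group lay between DMSO normoxia and the MLN4924 groups. Under normoxia MLN4924 raised it 2.14-fold (1.10 ± 0.33, adjusted p = 0.0428), and leaving out any 1 library of another group than DMSO hypoxia moved the adjusted p to between 0.0605 and 0.115. Without DMSO hypoxia replicate 1 the same difference had an SE of 0.08 (adjusted p = 5.83e-06). Under hypoxia the log2 difference was 0.96 ± 0.33 (adjusted p = 0.0601). It was 0.43 ± 0.09 without DMSO hypoxia replicate 1 (adjusted p = 0.00371), 1.29 without replicate 2 (0.0148) and 1.15 without replicate 3 (0.048). Hypoxia with DMSO gave 0.15 ± 0.33 (adjusted p = 0.755), and 0.68 ± 0.09, a 1.60-fold rise, without DMSO hypoxia replicate 1 (adjusted p = 0.000211). With MLN4924 the difference between hypoxia and normoxia was 0.01 (95% interval -0.73 to 0.76).

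Ajuba, a LIM-domain protein of cell junctions that binds and inhibits the LATS kinases, stood at 15.65, 13.3 and 12.95 FPKM in MLN4924 hypoxia, 17.8, 18.3 and 17.5 in MLN4924 normoxia, 10.1, 14.6 and 11.75 in DMSO hypoxia, and 12.4, 13.7 and 12.1 in DMSO normoxia. MLN4924 normoxia lay above the other 3 groups, which overlapped one another. MLN4924 raised it 1.38-fold under normoxia (0.46 ± 0.12, adjusted p = 0.0206), a call lost without any 1 of DMSO normoxia replicates 1 and 3 and MLN4924 normoxia replicates 1, 2 and 3 (adjusted p 0.0532 to 0.073). Under hypoxia the difference was 0.20 ± 0.12 (adjusted p = 0.255), 0.08 without DMSO hypoxia replicate 1 (0.594) and 0.33 without DMSO hypoxia replicate 2 (0.0373). Hypoxia with MLN4924 gave -0.34 ± 0.12 (adjusted p = 0.0576), past the threshold without DMSO hypoxia replicate 1 (0.0145), DMSO hypoxia replicate 2 (0.0193) or MLN4924 hypoxia replicate 1 (0.0438). Hypoxia with DMSO gave -0.07 ± 0.12 (adjusted p = 0.676), and 0.05 without DMSO hypoxia replicate 1 (0.760).

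The coactivators themselves changed little in RNA. Neither Yap1 nor Wwtr1 passed the test for MLN4924. Wwtr1 rose with hypoxia in both settings, by 1.18-fold and 1.23-fold. The log2 difference of Yap1 with hypoxia was -0.23 with MLN4924 and -0.21 with DMSO, and only the former passed the test.

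Yap1 stood at 34.6, 31.7 and 29.7 FPKM in MLN4924 hypoxia, 36.8, 37.0 and 39.3 in MLN4924 normoxia, 29.0, 33.1 and 29.0 in DMSO hypoxia, and 34.15, 37.1 and 34.1 in DMSO normoxia. Each group overlapped its neighbour in the order of means, but within each treatment every hypoxia library lay below every normoxia library. The MLN4924 difference was 0.07 under hypoxia (95% interval -0.09 to 0.24, adjusted p = 0.507, or 0.04 without DMSO hypoxia replicate 1) and 0.10 under normoxia (-0.07 to 0.27, adjusted p = 0.403). Hypoxia lowered it with MLN4924 (-0.23 ± 0.07, adjusted p = 0.0404). That call was lost without any 1 of 7 libraries: DMSO normoxia replicates 1 and 3 (adjusted p = 0.056 and 0.0562), MLN4924 hypoxia replicates 2 and 3 (0.102 and 0.147) and MLN4924 normoxia replicates 1, 2 and 3 (0.0769, 0.0807 and 0.131). It was also lost with the libraries scaled by the median of ratios (-0.18, adjusted p = 0.107). With DMSO the difference was -0.21 ± 0.07 (adjusted p = 0.0570), and -0.27 without DMSO hypoxia replicate 2 (0.0201).

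Wwtr1 stood at 46.5, 50.6 and 51.1 FPKM in MLN4924 hypoxia, 42.4, 42.4 and 40.5 in MLN4924 normoxia, 51.8, 50.4 and 56.7 in DMSO hypoxia, and 43.6, 42.5 and 42.5 in DMSO normoxia. All 6 hypoxia libraries were above all 6 normoxia libraries. Hypoxia raised it with MLN4924 (0.24 ± 0.06, adjusted p = 0.0118) and with DMSO (0.30 ± 0.06, adjusted p = 0.00316). The call with MLN4924 moved to an adjusted p of 0.0506 without MLN4924 hypoxia replicate 3. The MLN4924 difference was -0.10 (95% interval -0.23 to 0.03) under hypoxia and -0.04 (-0.17 to 0.09) under normoxia.

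Within each library, Wwtr1 was 1.35 to 1.72 times Yap1 in MLN4924 hypoxia and 1.03 to 1.15 times in MLN4924 normoxia. It was 1.52 to 1.95 times in DMSO hypoxia and 1.14 to 1.28 times in DMSO normoxia. The ratio was higher in every hypoxia library than in every normoxia library, and the ranges of MLN4924 and DMSO overlapped under both oxygen conditions.

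Of the TEAD factors, Tead3 fell with hypoxia in DMSO, and Tead1 passed no test in the fit of all 12 libraries with equal weight. Tead3 stood at 12.3, 10.6 and 11.7 FPKM in MLN4924 hypoxia, 13.2, 14.6 and 13.5 in MLN4924 normoxia, 11.3, 14.0 and 12.9 in DMSO hypoxia, and 16.6, 16.0 and 17.0 in DMSO normoxia. DMSO normoxia lay above the other 9 libraries. Hypoxia lowered it with DMSO (-0.36 ± 0.09, adjusted p = 0.00958). With MLN4924 the hypoxia difference was -0.24 ± 0.09 (adjusted p = 0.0652), and the MLN4924 difference under normoxia was -0.25 ± 0.09 (0.0671). Both passed without DMSO hypoxia replicate 1 (adjusted p = 0.0159 and 0.0152) and without DMSO hypoxia replicate 2 (0.0468 and 0.0478). Under hypoxia the MLN4924 difference was -0.13 ± 0.09 (adjusted p = 0.303), and -0.21 without DMSO hypoxia replicate 1 (0.0565).

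Tead1 rests on DMSO hypoxia replicate 1 more than any other member. It stood at 16.3, 15.0 and 16.9 FPKM in MLN4924 hypoxia, 20.0, 17.9 and 19.7 in MLN4924 normoxia, 2.02, 10.9 and 11.4 in DMSO hypoxia, and 12.55, 14.1 and 14.95 in DMSO normoxia. The groups did not overlap in the order MLN4924 normoxia, MLN4924 hypoxia, DMSO normoxia, DMSO hypoxia, but 1 library at 2.02 FPKM set the spread. With all libraries the SE was 0.42 and adjusted p lay between 0.0705 and 0.720. Array weights, which give each library its own weight, gave MLN4924 differences of 0.54 under hypoxia (adjusted p = 0.0222) and 0.44 under normoxia (0.0266). Without DMSO hypoxia replicate 1 MLN4924 raised Tead1 by 0.49 ± 0.08 under hypoxia (adjusted p = 0.00163, against 1.16 with all libraries) and by 0.44 ± 0.07 under normoxia (0.00136). Hypoxia then lowered it by 0.24 with MLN4924 (adjusted p = 0.024) and by 0.29 with DMSO (0.0207, against 0.96 with all libraries). Leaving out DMSO hypoxia replicate 2 or 3 in its place also took the DMSO hypoxia comparisons past the threshold, with MLN4924 differences of 1.48 and 1.51 (adjusted p = 0.0344 and 0.0314) and hypoxia differences of -1.28 and -1.31 (0.0473 and 0.0438).

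**Figure D2:**
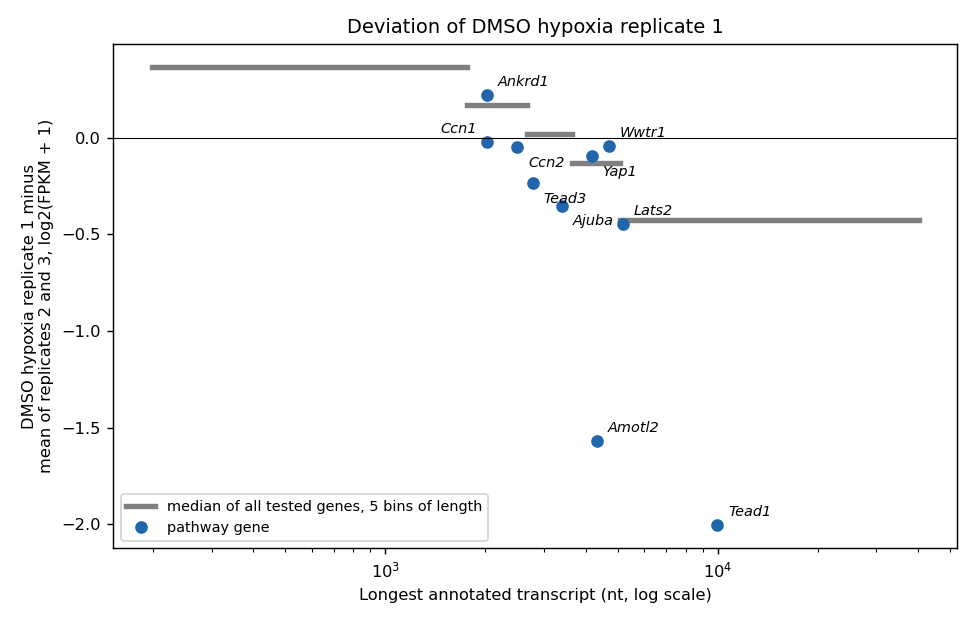
Log2 deviation of DMSO hypoxia replicate 1 from the mean of replicates 2 and 3 of its group (vertical axis) against the length of the longest protein-coding transcript in nt (horizontal, log scale), with the members as named points and the medians of 5 length bins of the tested genes as grey segments. Tead1, the longest member, sits at -2.01 and Amotl2 at -1.57, while the other 8 members lie between -0.45 and 0.22.

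The same library was the lowest of its group for 6 of the 10 members. Its deviation was -2.01 on the log2 scale for Tead1, whose longest transcript has 9964 nt, and -1.57 for Amotl2 with 4328 nt. It was -0.45 for Lats2 with 5191 nt, and -0.04 for Wwtr1, which is longer than Amotl2 at 4697 nt. Ccn1, Ccn2 and Ankrd1, with 2019, 2490 and 2020 nt, deviated by -0.02, -0.05 and 0.22. Without it, the log2 MLN4924 differences of these 3 targets under hypoxia were 2.09, 2.97 and 2.14.

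Counted over the members, MLN4924 under normoxia raised 6 of 10 (Ccn1, Ccn2, Ankrd1, Amotl2, Lats2 and Ajuba) and lowered 0, where 20.0% of the tested genes passed, 9.33% upward and 10.7% downward. The median log2 difference of the 10 was 0.63, against -0.03 over all tested genes. The members were chosen with earlier results of these data known. The counts and medians therefore describe these 10 genes and are no test of the pathway. Under hypoxia MLN4924 raised 4 (Ccn1, Ccn2, Ankrd1 and Lats2) and lowered 0, where 25.5% of the tested genes passed, 12.2% upward and 13.3% downward. The median was 0.89 against -0.01 over all genes, and 0.46 without DMSO hypoxia replicate 1. Without that library the counts were 7 raised and 1 lowered under normoxia, where 34.2% of the genes passed (16.0% upward and 18.2% downward). Under hypoxia they were 6 raised and 0 lowered, where 32.4% passed (16.8% upward and 15.7% downward).

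Hypoxia moved 4 of the 10 members in each setting. With MLN4924 it raised 3 members (Ccn2, Ankrd1 and Wwtr1) and lowered 1 (Yap1), where 28.2% of the tested genes passed, 11.7% upward and 16.5% downward. Scaled by the median of ratios, 4 members rose with hypoxia and 0 fell in that setting, and 50.7% of the genes called were higher, against 41.4%. With DMSO it raised the same 3 and lowered Tead3, where 33.2% passed, 13.8% upward and 19.4% downward. The median differences were -0.03 and -0.10, against -0.05 and -0.08 over all genes. Without DMSO hypoxia replicate 1 the counts were 4 raised and 4 lowered with MLN4924, where 42.6% of the genes passed (17.9% upward and 24.7% downward). With DMSO they were 4 raised and 2 lowered, where 38.7% passed (14.8% upward and 23.9% downward).

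**Figure D3:**
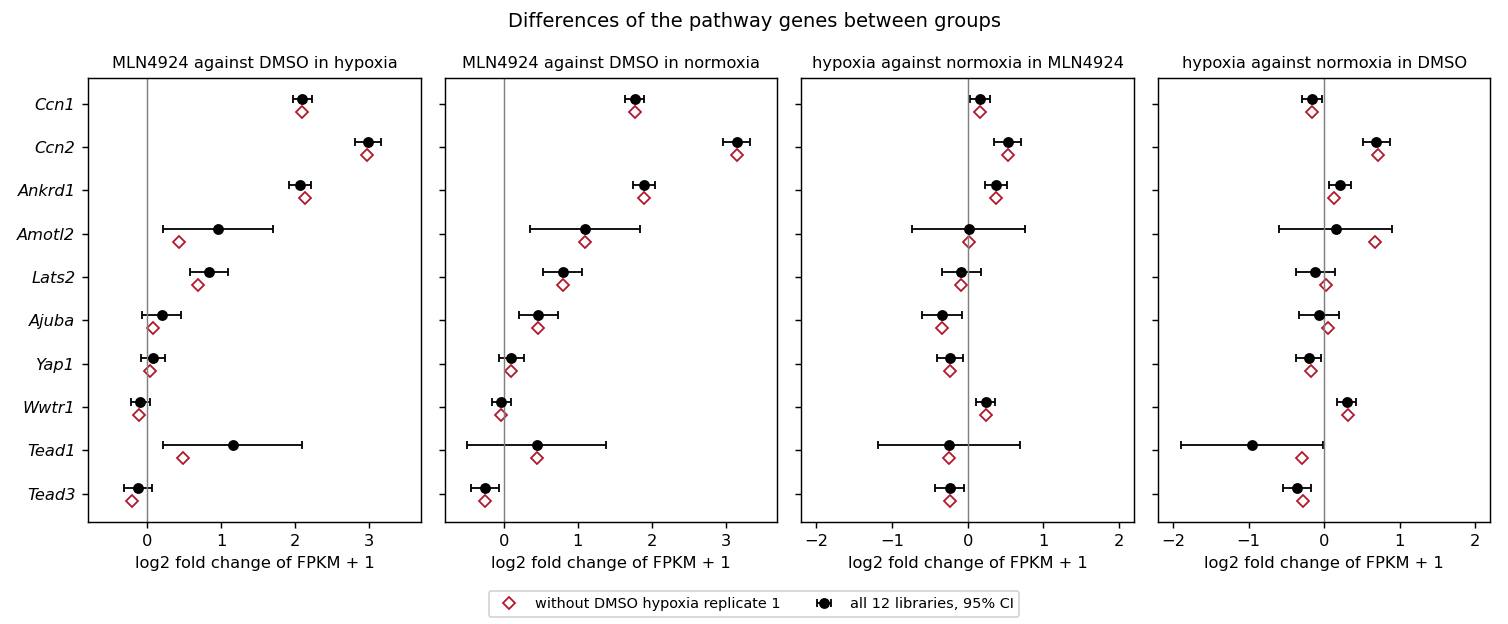
Log2 difference of each member in the 4 comparisons, with 95% intervals from all libraries (black) and the value alone without DMSO hypoxia replicate 1 (red, open). With MLN4924 Ccn2, Ccn1 and Ankrd1 lie between 1.77 and 3.15, and without the 1 library Tead1 moves to 0.49 and Amotl2 to 0.43 under hypoxia.

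Whether the response to hypoxia differed with MLN4924 was tested as an interaction, the hypoxia difference with MLN4924 minus that with DMSO. With all libraries 0 of the 10 members passed by limma, 1 had an unadjusted p under 0.05 (Ccn1), and 1.88% of the tested genes passed, 0.958% with a positive and 0.926% with a negative sign. The interaction of Ccn1 was 0.33 ± 0.08 (95% interval 0.14 to 0.51, adjusted p = 0.0895), that of Ccn2 was -0.16 (-0.42 to 0.09, adjusted p = 0.557) and that of Ankrd1 was 0.16 ± 0.09 (0.465). For Yap1 the interaction was -0.03 (95% interval -0.26 to 0.21, adjusted p = 0.920). Without DMSO hypoxia replicate 1, 5.51% of the genes (3.30% positive and 2.21% negative) and 3 members passed: Ccn1 at 0.32 (adjusted p = 0.0471), Ankrd1 at 0.24 (just under the threshold of 0.05) and Amotl2 at -0.66 (0.0101). Ccn1 also passed without DMSO normoxia replicate 3 (0.39, adjusted p = 0.0452). With array weights Ccn1 (0.33, adjusted p = 0.0266) and Ankrd1 (0.25, 0.0326) passed. For Amotl2 the sign follows from a hypoxia difference of 0.68 with DMSO and 0.01 with MLN4924.

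The rest of the pathway was followed in 6 gene lists. Among 22 Hippo kinases and upstream regulators, of which 21 were tested, MLN4924 raised 1 and lowered 3 under hypoxia, and raised 3 and lowered 4 under normoxia, where 25.5% and 20.0% of all tested genes passed. Leaving out DMSO hypoxia replicate 1 gave 3 and 5, and 6 and 7, where 32.4% and 34.2% passed. The list's median was 0.10 under hypoxia, or -0.04 without that library, and -0.10 under normoxia. Lats1, the sister kinase of Lats2, averaged 10.5 ± 1.11 FPKM in MLN4924 normoxia and 6.32 ± 1.60 in DMSO normoxia (SD, n = 3 each), a rise of 0.66 ± 0.19 (adjusted p = 0.0310). With MLN4924 it averaged 5.59 ± 1.08 under hypoxia and fell by 0.81 against normoxia (adjusted p = 0.00926). In DMSO hypoxia Lats1 averaged 6.96 ± 1.48, so under hypoxia its mean was lower with MLN4924. Nf2, which encodes merlin, an activator of the kinase cascade, fell with MLN4924 under normoxia, at 6.32 ± 0.350 FPKM against 9.87 ± 0.958 in DMSO (-0.57 ± 0.18, adjusted p = 0.0460). Under hypoxia the Nf2 mean was higher with MLN4924, at 8.31 ± 1.21 FPKM against 6.89 ± 2.04 in DMSO with all libraries. That difference did not pass the test, and the DMSO hypoxia mean includes the lowest of the 12 values, 4.62 FPKM. The Hippo-related kinase Map4k2 averaged 6.93 ± 0.406 FPKM in MLN4924 normoxia and 13.4 ± 1.53 in DMSO normoxia (-0.86 ± 0.11, adjusted p = 0.000337). Wwc1, or KIBRA, which promotes LATS activity, rose with MLN4924 under hypoxia, at 27.9 ± 2.59 FPKM against 17.7 ± 4.45 in DMSO hypoxia (0.66 ± 0.15, adjusted p = 0.00987, or 0.44 without DMSO hypoxia replicate 1). Under hypoxia the scaffold Sav1, an activator of the same kinases, fell with MLN4924 by 0.26 (adjusted p = 0.0209).

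Hypoxia raised 5 and lowered 2 genes of that list with MLN4924, and raised 3 and lowered 3 with DMSO, where 28.2% and 33.2% of all tested genes passed. These counts were 6 and 5, and 4 and 5, without DMSO hypoxia replicate 1, where 42.6% and 38.7% passed. Stk3, a Hippo kinase, rose with hypoxia in MLN4924 by 0.58 (adjusted p = 0.0277), and its paralogue Stk4 fell with hypoxia in DMSO by 0.44 (0.0237), or by 0.26 without DMSO hypoxia replicate 1 (0.0099). Taok3, a kinase upstream of the Hippo kinases, fell with hypoxia by 0.57 with MLN4924 (adjusted p = 0.00096) and by 0.54 with DMSO (0.00122).

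Of the other TEAD and Vgll genes, 4 of 6 were tested. Vgll3, a TEAD cofactor, averaged 22.9 ± 3.87 FPKM in MLN4924 hypoxia and 6.77 ± 3.84 in DMSO hypoxia, a rise of 1.77 ± 0.35 (adjusted p = 0.00438), or 1.26 without DMSO hypoxia replicate 1 (0.000258). Under normoxia it averaged 26.2 ± 0.900 with MLN4924 and 12.4 ± 2.30 with DMSO (1.03 ± 0.35, adjusted p = 0.0615, and 0.000355 without that library). Tead2 averaged 22.6 ± 1.01 FPKM in MLN4924 normoxia and 16.8 ± 1.19 in DMSO normoxia, a rise of 0.41 ± 0.11 (adjusted p = 0.0257). In DMSO hypoxia it averaged 22.4 ± 0.354, a rise of 0.40 over DMSO normoxia (0.0188). Vgll4, which competes with YAP for TEAD, fell with hypoxia by 0.25 with MLN4924 (adjusted p = 0.0436) and by 0.30 with DMSO (0.0163).

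Of the 4 other angiomotin and Ajuba family genes, MLN4924 raised 1 under hypoxia and 0 under normoxia. Of all tested genes, 12.2% passed upward under hypoxia and 9.33% under normoxia. Without DMSO hypoxia replicate 1 it raised 1 under each oxygen condition, where 16.8% and 16.0% passed upward. The gene raised under hypoxia with all libraries was Limd1, an Ajuba relative. It averaged 15.9 ± 0.616 FPKM in MLN4924 hypoxia against 12.4 ± 2.24 in DMSO hypoxia (0.34 ± 0.10, adjusted p = 0.0351, or 0.20 without DMSO hypoxia replicate 1). Limd1 fell with hypoxia by 0.40 with MLN4924 (adjusted p = 0.0163) and by 0.46 with DMSO (0.00734). Amot averaged 1.76 ± 0.867 FPKM in DMSO hypoxia and 4.27 ± 0.455 in DMSO normoxia (-0.98 ± 0.24, adjusted p = 0.00976, or -0.71 without that library).

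Of the 4 remaining CCN genes 3 were tested, and Ccn5 and Ccn3 moved opposite to Ccn1 and Ccn2 with MLN4924. Ccn5, which lacks the C-terminal domain of the other family members, averaged 21.4 ± 2.93 FPKM in MLN4924 hypoxia and 44.8 ± 6.49 in DMSO hypoxia (-1.03 ± 0.11, adjusted p = 0.000132), and 36.8 ± 0.671 in MLN4924 normoxia against 65.6 ± 3.30 in DMSO normoxia (-0.82 ± 0.11, adjusted p = 0.000559). It also fell with hypoxia, by 0.76 with MLN4924 (adjusted p = 0.000652) and by 0.55 with DMSO (0.00374). Ccn3 averaged 2.65 ± 0.240 FPKM in MLN4924 hypoxia and 5.03 ± 0.125 in DMSO hypoxia (-0.72 ± 0.11, adjusted p = 0.000866), and 2.63 ± 0.449 in MLN4924 normoxia against 6.43 ± 0.442 in DMSO normoxia (-1.04 ± 0.11, adjusted p = 0.000102). Ccn4 rose with MLN4924 under hypoxia, at 10.6 ± 1.28 FPKM against 7.81 ± 1.09 in DMSO hypoxia (0.40 ± 0.11, adjusted p = 0.0242), and fell with hypoxia in DMSO by 0.45 (0.0109).

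The list of genes for the turnover and cytoplasmic retention of YAP and TAZ held 10 genes. Of these MLN4924 raised 1 and lowered 2 under hypoxia, where 25.5% of all tested genes passed, and raised 1 under normoxia, where 20.0% passed. Without DMSO hypoxia replicate 1 MLN4924 raised 1 and lowered 2 under hypoxia, where 32.4% passed. Under normoxia it then raised 2 and lowered 1, where 34.2% passed. The medians were -0.02 under hypoxia, or -0.09 without that library, and 0.05 under normoxia. With all libraries, the gene raised under both oxygen conditions was Ywhag, whose product belongs to the family that binds phosphorylated YAP. It averaged 151 ± 3.43 FPKM in MLN4924 hypoxia against 115 ± 9.91 in DMSO hypoxia (0.40 ± 0.06, adjusted p = 0.000864). Under normoxia it averaged 147 ± 0.959 with MLN4924 against 128 ± 1.64 with DMSO (0.21 ± 0.06, adjusted p = 0.0323). Ywhab of the same family fell with hypoxia by 0.32 with MLN4924 (adjusted p = 0.000352) and by 0.36 with DMSO (0.000114).

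Among 17 other genes of published YAP/TAZ target signatures, of which 15 were tested, MLN4924 raised 6 and lowered 0 under hypoxia, and raised 3 and lowered 0 under normoxia. Of all tested genes, 12.2% passed upward under hypoxia and 9.33% under normoxia. Their medians were 0.37 under hypoxia, or 0.09 without DMSO hypoxia replicate 1, and 0.08 under normoxia, against -0.01 and -0.03 over all tested genes. Without that library 6 rose and 1 fell under each oxygen condition, where 16.8% of all tested genes passed upward under hypoxia and 16.0% under normoxia. F3, tissue factor, which starts coagulation, averaged 101 ± 4.35 FPKM in MLN4924 hypoxia and 33.9 ± 5.04 in DMSO hypoxia (1.56 ± 0.09, adjusted p = 2.4e-06), and 71.0 ± 0.267 in MLN4924 normoxia against 24.8 ± 1.14 in DMSO normoxia (1.48 ± 0.09, adjusted p = 3.29e-06). Tgfb2, a ligand of the TGF-β family, averaged 4.02 ± 0.620 FPKM in MLN4924 hypoxia and 1.32 ± 0.0971 in DMSO hypoxia (1.11 ± 0.11, adjusted p = 6.08e-05). Under normoxia it averaged 4.25 ± 0.277 with MLN4924 and 2.84 ± 0.146 with DMSO (0.45 ± 0.11, adjusted p = 0.0130). Crim1, a transmembrane protein that binds BMPs, averaged 27.4 ± 1.83 FPKM in MLN4924 hypoxia and 9.91 ± 6.55 in DMSO hypoxia (1.63 ± 0.42, adjusted p = 0.0177, or 0.98 without DMSO hypoxia replicate 1).

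Of the signature genes hypoxia raised 3 and lowered 1 with MLN4924, where 28.2% of all tested genes passed, and raised 3 and lowered 5 with DMSO, where 33.2% passed. Both counts were 4 raised and 5 lowered without DMSO hypoxia replicate 1, where 42.6% and 38.7% passed. Gadd45a, a stress-induced growth arrest gene, averaged 108 ± 5.13 FPKM in MLN4924 hypoxia and 39.0 ± 0.780 in MLN4924 normoxia (1.45 ± 0.11, adjusted p = 6.56e-06), and 61.6 ± 11.1 in DMSO hypoxia against 29.9 ± 1.58 in DMSO normoxia (1.01 ± 0.11, adjusted p = 6.24e-05). Igfbp3, a binding protein for insulin-like growth factors, rose with hypoxia by 1.32 ± 0.16 with MLN4924 (adjusted p = 0.000231) and by 0.78 with DMSO (0.00439). Tgfb2 fell with hypoxia in DMSO by 0.73 (adjusted p = 0.000525), opposite to Ccn2. The transcription factor gene Foxf2 fell with hypoxia in MLN4924 by 0.64 (adjusted p = 0.00028). The interaction of Tgfb2 was 0.66 ± 0.15 (adjusted p = 0.0601), and 0.62 without DMSO hypoxia replicate 1 (0.0444).

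**Figure D4:**
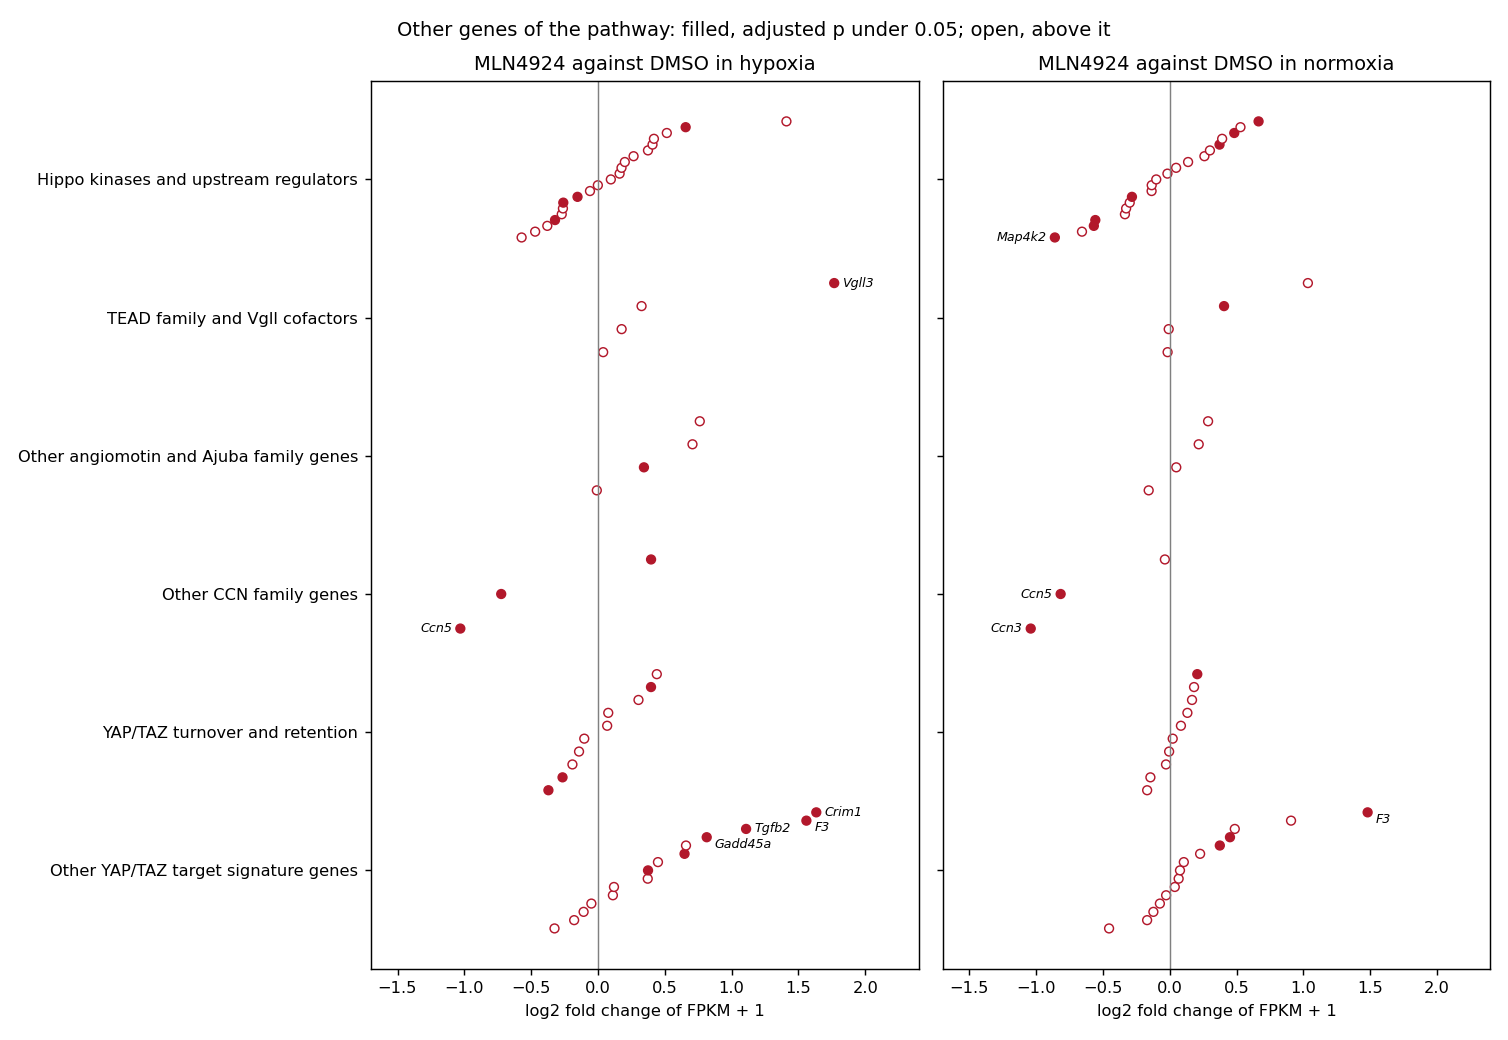
Log2 difference with MLN4924 of every tested gene in the 6 pathway lists, under hypoxia and under normoxia, 1 point per gene, filled where adjusted p is under 0.05. Vgll3 at 1.77 and F3 at 1.56 and 1.48 are among the high points, and Ccn5 at -1.03 and -0.82 and Ccn3 at -0.72 and -1.04 lie low.

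Genes with the most similar profile were sought for Ccn1, Ccn2 and Yap1 by Pearson correlation of log2(FPKM + 1) over the 12 libraries, among 8817 genes with a mean of at least 5 FPKM in their highest group. The libraries are 4 groups of 3 and share treatment, so the coefficients are descriptions. Nearest to Ccn1 were Tagln (r = 0.997), Actg1 (0.993), Thbs1 (0.992) and Lbh (0.991). Tagln, a smooth muscle actin-binding protein, averaged 32.8 FPKM in MLN4924 hypoxia, 29.2 in MLN4924 normoxia, 2.32 in DMSO hypoxia and 2.95 in DMSO normoxia. Nearest to Ccn2 were Edn1 (0.996), Cavin2 (0.995), Lbh (0.992) and Procr (0.992). Edn1, the precursor of the peptide endothelin, averaged 16.0 FPKM in MLN4924 hypoxia, 9.31 in MLN4924 normoxia, 1.97 in DMSO hypoxia and 0.817 in DMSO normoxia, the order of groups seen for Ccn2. Yap1 was nearest to Snx11 (0.980), Prn, Slc10a3 and Nat10 (0.926 each). Snx11, a sorting nexin, averaged 5.78 FPKM in MLN4924 hypoxia, 8.81 in MLN4924 normoxia, 5.14 in DMSO hypoxia and 8.04 in DMSO normoxia, lower in the hypoxia groups.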

How the data were processed

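RNA-seq of GC-2 cells was deposited as 1 table of FPKM values per gene for 12 libraries. Per the labels' protocols RNA was extracted with RNAiso Plus and libraries were sequenced as read pairs, each read 150 nt long. Tools named in the submitters' processing notes are fastp, STAR and RSEM 1.3.3, with build mm39, and the FPKM values were made by the authors. FPKM is scaled to length and to the library, so it does not show absolute RNA, and read depth per library is not given in the sources used here; no counting interval is given.

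From the deposited FPKM, log2(FPKM + 1) was tested with limma 3.58.1 in R 4.3.3: 1 mean per group, empirical Bayes moderation with a trend, two-sided, Benjamini-Hochberg adjustment over the 12311 genes that reached 1 FPKM in 3 or more libraries, threshold 0.05. All 4 groups shared 1 estimate of spread. The pipeline was tested on simulated data with equal spread in all 12 libraries. That test does not cover a deviant library such as DMSO hypoxia replicate 1. The members, the gene lists and the rule for named genes (every member, and up to 4 genes per list and comparison with the largest change among those past the threshold) were chosen with earlier results of these data known. Values of 1 gene that this rule names are not reported here. The 2 hypoxia comparisons and the 2 MLN4924 comparisons share groups with one another. Libraries with equal replicate numbers were not treated as pairs. Transcript lengths and promoters came by symbol from GENCODE and RefSeq on GRCm38, while the files use mm39.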

Additional observations from a re-analysis of the deposited data

How the results depend on the processing

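Calls for Ccn1, Ccn2, Ankrd1 and Lats2 with MLN4924, under hypoxia and normoxia, held in all 22 alternatives, as did Ccn2 and Ankrd1 for hypoxia with MLN4924, and Ccn2 and Wwtr1 for hypoxia with DMSO. Of all values for single members, 983 kept direction and side of the threshold, 50 gained a call, 40 lost one and 17 changed sign. The cause of these changes was not tested. Leaving out 1 library moved the number of genes called to 2151 to 3993 (3137 with all) for MLN4924 under hypoxia, 1676 to 4215 (2467) under normoxia, 2523 to 5242 (3473) for hypoxia with MLN4924, 3017 to 4768 (4093) with DMSO, and 90 to 678 (232) for the interaction, each highest without DMSO hypoxia replicate 1. Members called ranged over 4 to 7, 4 to 8, 2 to 8, 3 to 6 and 0 to 3 in the same order. Fitting only the libraries compared gave 1264 genes for MLN4924 under hypoxia, 4068 under normoxia, 2224 for hypoxia with DMSO (2 members), and 8 members for hypoxia with MLN4924. Array weights gave 4524 genes for MLN4924 under normoxia, 5339 (7 members) for hypoxia with MLN4924, and 843 (2 members) for the interaction. Calls were lost for Amotl2 and Ajuba with MLN4924 under normoxia on TPM rescaling (adjusted p = 0.078 and 0.0751 by limma), for Amotl2 with no filter (0.0877), for Yap1 under hypoxia with MLN4924 on TPM rescaling (0.154), no filter (0.0627) and no trend (0.0581), and under hypoxia with DMSO for Ankrd1 on 4 settings (0.0517 to 0.167, the replicate block aside) and Tead3 on only the libraries compared (0.0573). Amotl2 with MLN4924 under hypoxia gained a call with array weights (0.00774) and with 1 FPKM required in all 12 libraries (0.0464). Median-of-ratios scaling moved the share of higher calls for hypoxia with DMSO to 51.7%, against 41.5%. Signs changed for differences that had not passed the threshold with all libraries. For hypoxia with DMSO, Lats2 was 0.0079 with array weights, and leaving out 1 library gave -0.207 to 0.0304 for Lats2, -0.18 to 0.68 for Amotl2 and -0.203 to 0.0459 for Ajuba. For hypoxia with MLN4924, leaving out 1 library gave -0.0356 to 0.0475 for Amotl2. For the interaction, TPM rescaling gave 0.0445 for Yap1 and 0.0129 for Wwtr1, array weights gave -0.0849 for Lats2, and leaving out 1 library gave -0.0836 to 0.0347 for Yap1, -0.11 to 0.124 for Lats2 and -0.66 to 0.19 for Amotl2. Deviations from the group means correlated at -0.07 to 0.0993 between libraries of equal replicate number (12 pairs, 0 over 0.1). In 7 of the 12 the own number gave the highest correlation. With 3 libraries a group, whether the numbers mark pairs cannot be decided. The replicate block gave 132 genes for the interaction and 4, 5, 3, 3 and 0 members in the order above, and moved no other count of genes by over 1.5 times. Depth is unknown, so the limit it sets on low genes cannot be given.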
